A study of Hordeum vulgare subsp. vulgare with 8 samples.

Results

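Far alternative acceptors that shorten the exon are alternative 3′ splicing (A3S) events in which the upstream exon was joined to a site at least 31 nt inside the annotated exon, so that the start of that exon was left out of the transcript. An event was defined by its gene and by the start and end of 3 exons, namely the upstream exon shared by both forms, the annotated downstream exon and the alternative downstream exon. Of 5473 distinct A3S events, 1083 (19.8%) met this definition, and they lay in 935 of 3574 A3S genes (26.2%). They accounted for 1791 of 10712 entries in the lists of the 8 libraries, since an event can be listed in several libraries.

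Seeds of 4 barley varieties, Baudin, Bass, Harrington and Stirling, were imbibed in water in the dark for 24 h or 48 h, and the embryos were separated from the endosperm. Each of the 8 libraries was 1 variety at 1 time, made from a pool of embryos, so that the varieties were the only replicates of a time. All seeds came from 1 field trial and were described as non-dormant. No mutant or chemical treatment was part of the design, and the comparison was between the times within a variety. The lists held 1150 to 1712 A3S events per library, and the total number of reads per library was not in them. Since only exons with an alternative site are listed, marker genes of the embryo could not be checked.

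During splicing the 3′ end of an intron is recognised through a branch point, a stretch rich in pyrimidines and a terminal AG dinucleotide, which together form the acceptor. When a second acceptor downstream is used, the first part of the exon is removed with the intron. If that part is coding and its length is a multiple of 3, the reading frame is kept and the protein loses a stretch of amino acids. Otherwise the frame shifts, which often brings an early stop codon. Acceptors only a few nucleotides apart are a frequent kind of A3S in plants, and they change far less of the exon than those described here. The lists do not mark coding and untranslated parts, so whether the stretches here lie in coding sequence is not known.

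The length removed had a median of 56 nt over the 1083 distinct events, and the middle 50 percent of events removed between 42 and 84 nt. The longest stretch was 728 nt. Short distances were the most frequent, with 592 events (54.7%) removing 31 to 60 nt, 313 removing 61 to 100 nt, 144 removing more than 100 and up to 200 nt, and 34 removing more. The threshold cut through a continuous range, as 44 events removed exactly 31 nt and 41 A3S events just outside it removed 30 nt. The event just inside it with the most libraries was that of MLOC_80476.1 (8 libraries). The one just outside it was that of MLOC_21728.3, a 30 nt stretch listed in 6 libraries at a mean exon depth of 17.7.

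**Figure D1:**
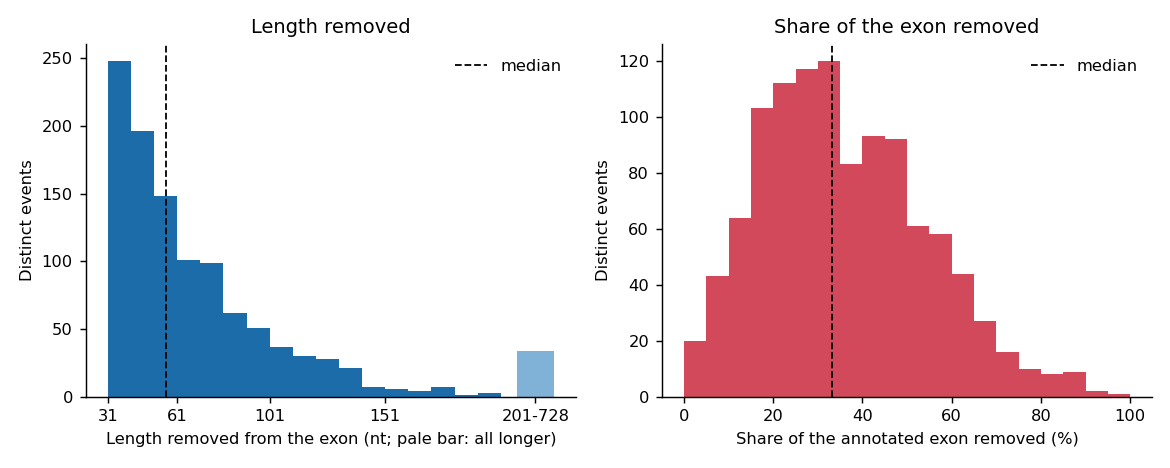
Length removed from the annotated exon (left, nt, in steps of 10 nt, with all events above 200 nt in the pale bar) and share of the exon removed (right, percent, in steps of 5 points) over the 1083 distinct events. The vertical axes count events and the dashed lines mark the medians, 56 nt and 33.2%.

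These acceptors removed a median of 33.2% of the annotated exon, with quartiles of 21.7% and 48.0% and extremes of 2.26% and 95.8%. In 231 events (21.3%) more of the exon was lost than was kept. The annotated exons had a median length of 188 nt, against 146 nt for the other A3S events, a difference that the length rule itself favours. A median of 116 nt was left, and 22 events (2.03%) left under 30 nt. The smallest remnant was in MLOC_37365.3, in which 69 of 72 nt were removed and 3 nt were left. It was listed only in Baudin at 48 h, at a depth of 6.14 reads per base. The annotated intron before these exons had a median of 153 nt, close to the 156 nt of other A3S events, and the alternative intron had a median of 233 nt.

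The 5 longest stretches were each listed in a single library. MLOC_45258.1 lost 728 of 885 nt in Bass at 24 h, MLOC_10662.1 lost 658 of 742 nt in Harrington at 48 h, and MLOC_56518.4 lost 628 of 762 nt in Stirling at 24 h. MLOC_70531.1, described as a kinase family protein, lost 627 of 794 nt in Bass at 48 h, which was the only one of the 5 with a multiple of 3. MLOC_22581.1 lost 565 of 652 nt in Harrington at 48 h. Long removals were seldom seen again, since 4 of the 34 events over 200 nt (11.8%) were listed in at least 2 libraries, against 190 of the 592 events of 31 to 60 nt (32.1%).

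The length removed was a multiple of 3 in 395 of the 1083 events (36.5%, 95% Wilson interval 33.7 to 39.4). It left a remainder of 1 in 384 events (35.5%) and of 2 in 304 events (28.1%, 25.5 to 30.8). The share of multiples of 3 was 35.8% for 31 to 60 nt, 36.1% for 61 to 100 nt, 37.5% for the next class up to 200 nt and 47.1% for longer stretches, and the intervals of all 4 classes overlapped. The Wilson intervals cover counting error only, and events of 1 gene share its sequence.

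The same share was set beside that of the 576 far acceptors that lengthen the exon by at least 31 nt. Averaged over both times of each variety, a multiple of 3 was found in 35.5 ± 1.93% of far shortening acceptors and 37.8 ± 1.14% of far lengthening acceptors (SD, n = 4 varieties). The difference of -2.36 ± 1.18 points had the same sign in all 4 (two-sided exact permutation test by sign flips, p = 0.125, the lowest that 4 pairs allow). With 4 varieties no difference of this kind can pass 0.05. Over distinct events the order was the opposite, 36.5% for shortening and 35.4% for lengthening (31.6 to 39.4), and with a threshold of 21 or 61 nt in place of 31 nt the difference between variety means was -0.12 or -1.05 points. Within the 8 libraries the share for shortening acceptors ran from 31.4% in Bass at 24 h to 39.3% in Stirling at 24 h, and it did not move in 1 direction with time.

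**Figure D2:**
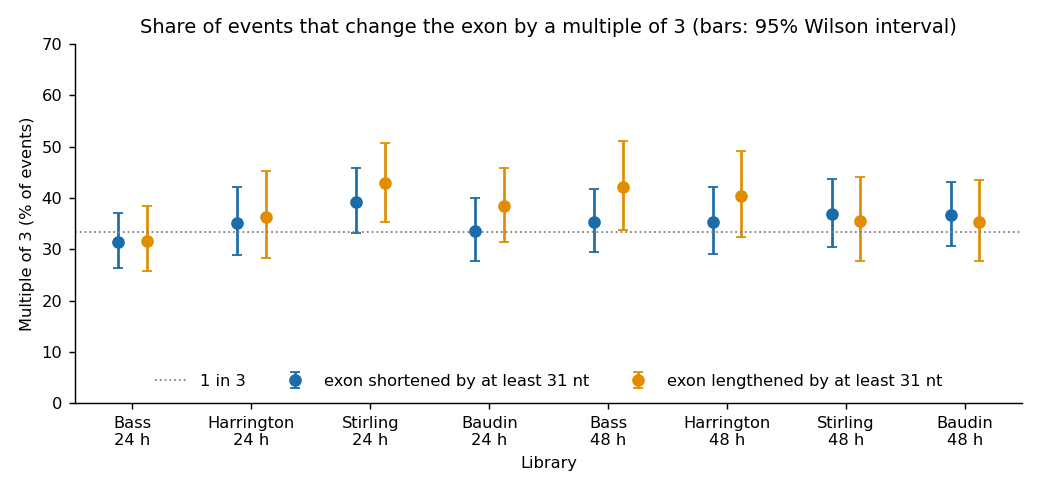
Share of events that change the exon by a multiple of 3 (percent, vertical axis) in each of the 8 libraries, for exons shortened or lengthened by at least 31 nt. Points are shares, bars are 95% Wilson intervals and the dotted line marks 1 in 3; the shares for shortening run from 31.4% to 39.3% and the intervals of both kinds overlap in every library.

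Most exons with a far shortening acceptor had only 1. The 1083 events lay in 997 annotated exons, of which 79 had at least 2 such sites, and in 154 exons (15.4%) another A3S event was also listed. Sites of the same exon were often close to each other. Among 86 pairs of neighbouring sites the median spacing was 15 nt, 34 pairs were at most 10 nt apart, and 9, 7 and 9 pairs were exactly 3, 4 and 5 nt apart. Spacings of a multiple of 3 made up 39 of the 86 pairs (45.3%), among them the 9 pairs 3 nt apart. Some exons gave several pairs, which are not independent, and the share was not tested against that of other A3S sites.

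At gene level, 802 of the 935 genes had 1 far shortening acceptor, 121 had 2 and 12 had more. MLOC_60404.7 had 5, at 2 exons. At its exon of 256 nt the sites lay 34, 39, 43 and 120 nt inside, and the first of these was listed in 4 libraries. MLOC_65935.3, described as subunit 9 of eukaryotic translation initiation factor 3, which helps to bring the small ribosomal subunit to the mRNA, had 4. Its exon of 199 nt had sites at 94, 97 and 106 nt, listed in 7, 2 and 3 libraries. All 3 sites left the same remainder of 1. If the exon is coding, which is not known, they would share a reading frame with each other but not with the annotated form.

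MLOC_14599.6 (casein kinase I-like, a family of serine/threonine kinases) had 3 sites in an exon of 288 nt, at 31, 62 and 65 nt. The first was listed in 5 libraries, 4 of them at 48 h, and the last in 3. MLOC_69212.1 (protein kinase 1) had sites at 54 and 59 nt of an exon of 99 nt and another at 31 nt of a different exon. MLOC_53853.1, whose product is unknown, had neighbouring sites at 39 and 42 nt, both multiples of 3. Another site removed 219 of 965 nt of a different exon, in Baudin at 48 h only. The 42 nt site was listed in all 8 libraries, and the 39 nt site only in Baudin, at both times. Of the 935 genes, 285 (30.5%) were also listed with an alternative 5′ splice site, as were 771 of 2639 other A3S genes (29.2%).

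The events were spread over 12 of the linkage groups (LG, the chromosome-like units of the deposited lists). LG01 held 386, LG10 198, LG02 149 and LG04 136 of them. As a share of the A3S events of a linkage group they ranged from 17.1% on LG05 to 23.3% on LG10 among the groups with at least 100 A3S events. By strand, 570 were on plus and 513 on minus.

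Each library listed between 196 and 280 far shortening acceptors. At 24 h Bass had 280, Harrington 196, Stirling 229 and Baudin 226, and at 48 h the same varieties had 229, 204, 201 and 226. The number went down in 2 varieties, up in 1 and was equal in 1. The means of 232.75 ± 34.8 and 215 ± 14.5 (SD, n = 4) differed by -17.75 ± 27.01, less than the spread between varieties (exact permutation test by sign flips, p = 0.5).

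As a share of the A3S events of a library, far shortening acceptors were higher at 48 h in each variety. It was 16.4%, 16.1%, 15.8% and 15.01% of A3S events at 24 h in Bass, Harrington, Stirling and Baudin, and 19.0%, 17.7%, 17.0% and 17.5% at 48 h. Every 48 h library was above every 24 h library. The mean went from 15.8 ± 0.58% to 17.8 ± 0.85%, a difference of 2.01 ± 0.70 points that was positive in each of the 4 (two-sided exact permutation test by sign flips, p = 0.125, again the lowest possible). An exact permutation of the time labels over all 8 libraries without the pairing by variety (no replicate block) gave p = 0.0286, also the lowest that test allows. Among exons covered in full the difference was 0.924 points, with the same sign. The total of A3S events per library, the denominator of this share, moved the other way. It was 1472 ± 203 at 24 h and 1207 ± 59.4 at 48 h, lower in 4 of 4 varieties. The part of sequencing depth in these counts was not tested.

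**Figure D3:**
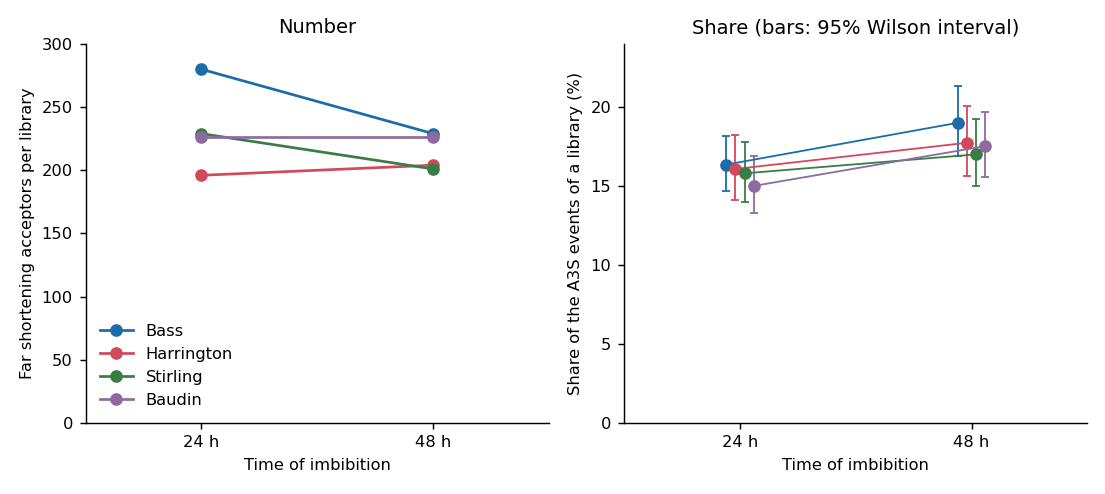
Number of far shortening acceptors per library (left) and their share of the A3S events of the library (right, percent, with 95% Wilson intervals) at 24 h and 48 h of imbibition, with 1 line per variety. The number has no common direction, and the share is higher at 48 h in all 4 varieties, from 15.01 to 16.4% up to 17.0 to 19.0%.

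By length, the change was uneven. Events of 31 to 60 nt went from 135 ± 25.1 to 112.5 ± 4.65 per library and were fewer at 48 h in 4 of 4 varieties. Those of 61 to 100 nt averaged 64.5 and 63.75. Those over 100 nt averaged 33 ± 3.46 at 24 h and 38.75 ± 8.18 at 48 h, more in 3 varieties and equal in the other. As a mean share of A3S events, those of 31 to 60 nt made up 9.17% at 24 h and 9.34% at 48 h. Those of 61 to 100 nt made up 4.38% and 5.29%, and those over 100 nt 2.25% and 3.20%. For comparison, A3S events outside the group averaged 1239 and 991.5 per library and were fewer at 48 h in 4 of 4 varieties. These classes were not tested against each other.

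Recurrence over libraries was low. Of the 1083 events, 751 were listed in 1 library, 170 in 2, 72 in 3, 41 in 4, 15 in 5, 8 in 6, 11 in 7 and 15 in all 8. An event absent from a list has no value there, so that absence can mean a site not used, an exon of low depth or a site not detected. At least 2 libraries listed 332 events (30.7%), against 39.6% of far lengthening events and 37.9% of all A3S events. By variety, 776 events were listed in 1 variety only, of which 248 were in Bass, 190 in Baudin, 174 in Stirling and 164 in Harrington. Of these, 25 were listed at both times.

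Within a time, 44.4 ± 2.34% of the far shortening acceptors of a library were also listed in another variety, against 60.2 ± 5.07% of the far lengthening acceptors (mean over both times of each variety, SD, n = 4). The difference of -15.8 ± 3.63 points was negative in each of the 4 (exact permutation test by sign flips, p = 0.125, the lowest possible). An event shared between varieties counts in each of them, so the 4 values are not independent. Neither the SD nor the p-value here measures a spread between independent varieties. The 2 kinds of exon had overlapping depths. The median exon depth per library was 23.0 to 37.4 reads per base for shortening and 22.9 to 41.8 for lengthening acceptors, and its part in the recurrence was not tested.

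**Figure D4:**
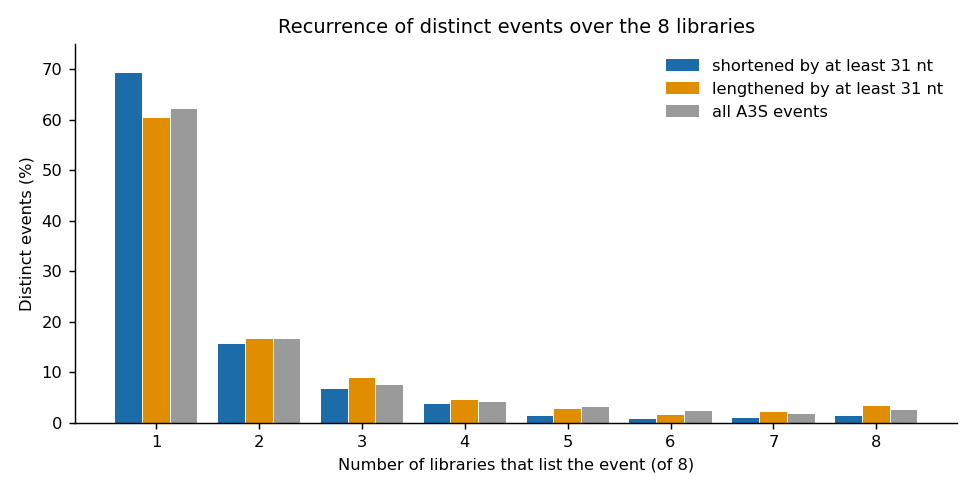
Share of distinct events (percent, vertical axis) by the number of libraries, from 1 to 8, that listed them, for exons shortened by at least 31 nt (1083 events), exons lengthened by at least 31 nt (576) and all A3S events (5473). Of the shortening events 30.7% were in at least 2 libraries, below the 39.6% of lengthening events.

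By time, 457 events were listed only at 24 h, 395 only at 48 h and 231 at both. Overlap between times and overlap between varieties covered similar ranges. Between 21.4% and 28.4% of the events of a library were also listed at the other time in the same variety, and 22.0% to 27.9% were also listed in another variety at the same time, as a mean over the other 3. At least 3 varieties listed 51 events at 24 h and 61 at 48 h, with 29 in both sets.

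Among all 5473 A3S events, 18 (0.329%) were listed in all 4 varieties at 24 h and in none at 48 h. The opposite pattern was seen in 9 (0.164%). Of the 1083 far shortening acceptors, 2 and 0 showed these patterns, counts too small to set the group apart. The first of the 2 was in MLOC_17938.4, which has no description in the tables used. There 98 of 418 nt were removed from an exon at nucleotides 138187200 to 138187617 of LG10. At 24 h the exon had a depth of 325 in Bass, 184 in Harrington, 267 in Stirling and, as the highest, 473 in Baudin. In Bass, Stirling and Baudin a site 84 nt inside the same exon was listed beside it. The exon was in none of the 48 h lists of alternative 3′ or 5′ sites, and its depth at that time is not known from them. The second was in MLOC_37235.1, described as a MATE efflux family protein, a class of membrane exporters of small molecules. It lost 39 of 87 nt, and its exon had a depth of only 8.28, 8.48, 5.66 and 5.57 in the same order of varieties.

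The deposited depths were used to ask how deeply the removed stretch was covered in comparison with the part of the exon that both forms keep. A ratio of 1 means equal depth, and a low ratio means that few reads covered the stretch. Depth varies along an exon for other reasons as well, so the ratio is not a share of transcripts. Its median over the 1791 entries was 0.757, with quartiles of 0.440 and 1.103, against 0.213 for far lengthening acceptors, in which the stretch is annotated as intron. The stretch had a ratio under 0.5 in 30.3% of entries, whereas 58.8% of all A3S entries that shorten the exon did. It was deeper than the kept part in 30.8% of entries, against 12.8%. The 7519 comparison entries include the far shortening acceptors themselves, and the rest removed 1 to 30 nt. Within the group the ratio was lower for shorter stretches, as given next, and the part of stretch length in these contrasts was not tested.

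The ratio was higher in the longer classes. The median over entries was 0.675 for 31 to 60 nt, 0.822 for 61 to 100 nt, 0.994 for the next class up to 200 nt and 1.09 for longer stretches. No overall shift was seen with time. The library medians were between 0.701 and 0.783, and the log2 of the ratio differed between 48 h and 24 h by -0.02 ± 0.10 (SD, n = 4 varieties, exact permutation test by sign flips, p = 0.875). In the events listed at both times in the same variety, a comparison chosen after the values were seen, the median log2 change averaged -0.09 ± 0.07 over the varieties and was negative in each of the 4 (exact permutation test by sign flips, p = 0.125, the lowest possible).

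The 15 events found in every library covered depths from 2.80 to 1782 reads per base. In 8 of the 15 (53.3%, 95% Wilson interval 30.1 to 75.2) the stretch was a multiple of 3, against 36.5% of all 1083 events. This share did not rise steadily with recurrence. It was 39.7% for events in 1 library, 23.5% in 2, 37.5% in 3, 29.3% in 4, 13.3% in 5, 50% in 6 and 36.4% in 7. The deepest of the 15 was MLOC_80476.1, described as a Wali6 protein, a family named from wheat genes induced by aluminium. Its exon at nucleotides 15746557 to 15746744 of LG01 (minus strand) lost 31 of 188 nt. At 24 h the exon depth of Bass was 319, that of Harrington 1139, that of Stirling 658 and that of Baudin 397, and at 48 h it was 1782, 686, 1177 and 684.5. The exon was deeper at 48 h in Bass, Stirling and Baudin and less deep in Harrington, on depths that are not scaled for library size and in which fewer cells and less RNA per cell cannot be told apart. The ratio lay between 0.227 and 0.352 at 24 h and between 0.276 and 0.294 at 48 h, inside the range of the earlier time.

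MLOC_79030.1 had the longest stretch of the 15, 289 of 454 nt at nucleotides 21973646 to 21974099 of LG03. The ratio was above 1 in every library, with 1.32, 1.39, 1.30 and 1.26 at 24 h and 1.22, 1.31, 1.06 and 1.08 at 48 h in Bass, Harrington, Stirling and Baudin. It was lower at 48 h in each variety, and the groups overlapped. MLOC_12188.3, described as an Arf-GAP, a protein that turns off small GTPases of vesicle traffic, lost 114 of 179 nt at nucleotides 74626977 to 74627155 of LG10. Its ratio lay in a narrow range, 0.798 to 0.871 at 24 h and 0.746 to 0.833 at 48 h.

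The lowest and highest ratios of the 15 were in genes without a description. MLOC_11462.1 lost 106 of 279 nt and its stretch was hardly covered, at 0.0947 to 0.185 of the depth of the kept part at 24 h and 0.0576 to 0.185 at 48 h. In this gene the upstream exon had a depth of 185 to 787, whereas the annotated exon had 17.1 to 39.7. MLOC_66800.1 lost 131 of 233 nt and its stretch was 2.28 to 4.48 times as deep as the kept part. Stirling was high at both times, with 4.48 and 4.06, and in Stirling 79.8% and 83.7% of the exon was covered, while the other varieties had full cover. Baudin was high at 24 h only, with 4.06.

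In MLOC_18775.1, which lost 57 of 100 nt, the stretch was deeper than the kept part in every library, at a ratio of 1.27 to 1.61 at 24 h and 1.20 to 1.59 at 48 h. MLOC_33273.1 had the shallowest exon of the 15, at 2.80 to 18.7 reads per base, and lost 63 of 102 nt at a ratio of 0.985 to 1.80. MLOC_37550.1 lost 49 of 175 nt at 0.969 to 1.26 at 24 h and 0.770 to 1.02 at 48 h, lower at 48 h in 3 of 4 varieties with overlapping groups. In this last gene 3 of the 4 libraries at 48 h were below 1. MLOC_20668.1 lost 72 of 207 nt at 0.563 to 0.680 and 0.556 to 0.640, and MLOC_43868.1 lost 36 of 197 nt at 0.350 to 0.634 and 0.287 to 0.486, in the same order of times. MLOC_13672.3 lost 44 of 146 nt at 0.318 to 0.698 at 24 h and 0.378 to 0.635 at 48 h. In all of these events the values of the times overlapped. MLOC_50869.1 (43 of 155 nt) and MLOC_38749.13 (36 of 103 nt) completed the set, at ratios of 0.475 to 0.892 and 1.01 to 1.24.

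**Figure D5:**
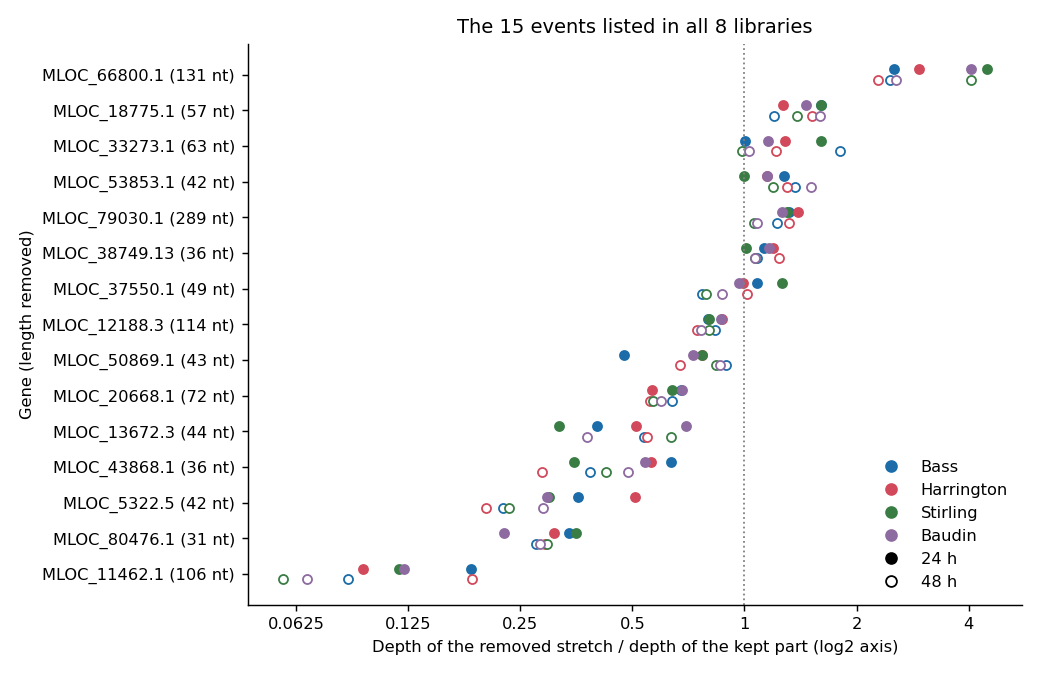
Depth of the removed stretch divided by the depth of the kept part of the exon (log2 axis, no unit) for the 15 events listed in all 8 libraries, ordered by their mean. Each point is 1 library, coloured by variety, filled at 24 h and open at 48 h, and the dotted line marks equal depth; the genes span from 0.0576 to 4.48, and the groups of the times do not overlap only in MLOC_5322.5.

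The ratios of the 15 were compared between times in a fit over all 136 A3S events listed in all 8 libraries, with variety as a block. At an adjusted p under 0.05 (limma, Benjamini-Hochberg), 0 of the 136 events were called (0%). At an unadjusted p under 0.05, 15 of the 136 were (11%, with 5.15% higher and 5.88% lower at 48 h), and 0 of the 15 far shortening acceptors. The log2 ratio was lower at 48 h in 12 of the 15 and higher in 3, against 77 lower and 59 higher among all 136, and 6 of the 12 turned positive when the ratios of each library were centred on their median. The median was -0.08 for the 15 and -0.03 for the 136.

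MLOC_5322.5 was the only one of the 15 whose times did not overlap, a pattern found in 7.35% of the 136 events (2.21% with all 48 h values higher and 5.15% with all lower). It lost 42 of 160 nt, and its ratio was 0.357, 0.508, 0.298 and 0.295 at 24 h and 0.225, 0.203, 0.233 and 0.287 at 48 h in Bass, Harrington, Stirling and Baudin. Harrington changed most. The log2 difference was -0.60 ± 0.24 (SE), lower in 4 of 4 varieties, with an adjusted p of 0.501 (limma), and so it did not pass the test. MLOC_53853.1 was higher at 48 h in 4 of 4 varieties by 0.23 ± 0.11 (SE, log2 scale, limma adjusted p = 0.509), with overlapping groups.

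The 11 events missing from a single library were examined after their values were seen. The deepest was in MLOC_56615.1, without a description, where 50 of 243 nt were removed at an exon depth of 3473 to 4824 and a ratio of 0.408 to 0.480. It was absent only in Bass at 24 h. There the same exon had a depth of 4317, and a site 15 nt inside it was listed instead. MLOC_51052.3, described as a phosphatidylinositol-4-phosphate 5-kinase, which makes a membrane lipid of signalling, lost 78 of 155 nt and was absent only in Baudin at 24 h. Its stretch was 2.76 to 5.02 times as deep as the kept part, the highest mean ratio of the 26 events listed in at least 7 libraries.

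Described genes of this set had varied roles. MLOC_56433.1 encodes a PHD finger protein, ALFIN-LIKE 9, of a family that reads histone methylation, and lost 54 of 127 nt at a ratio of 1.26 to 1.54. MLOC_65417.5 (DEHYDRATION-INDUCED 19 homolog 3, a zinc finger protein of a family named for its response to drought) lost 87 of 287 nt and was absent only in Harrington at 48 h. At 24 h Bass had a ratio of 1.19, Harrington 1.40, Stirling 1.20 and Baudin 1.13, and it was 0.812, 0.808 and 0.784 in Bass, Stirling and Baudin at 48 h. The times did not overlap and each of the 3 pairs was lower at 48 h. In a fit over the 255 A3S events listed at both times in at least 3 varieties, its log2 difference was -0.55 ± 0.15 (SE) with an adjusted p of 0.298 (limma), so it did not pass. Of the 29 far shortening acceptors in that fit, 2 had all 48 h values lower and 0 had all higher, against 6.67% and 5.1% of the 255 events. MLOC_15738.2 (AP-2 complex subunit beta-1, part of the adaptor that links clathrin to cargo) lost 40 of 294 nt at a low ratio, 0.179 to 0.380. The stretch was a multiple of 3 in ALFIN-LIKE 9 and in the DEHYDRATION-INDUCED 19 homolog, and not in the AP-2 subunit.

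A description was found for 188 of the 935 genes, which is 25.8% of the 730 described A3S genes and so close to the share of all A3S genes. The counts below therefore cover a minority of genes, and the lists are small. Several of the supplementary tables that gave the descriptions hold only transcripts found in at least 3 varieties, which favours recurrent events. The described genes together had 239 events, of which 98 were in at least 2 libraries and 86 removed a multiple of 3. Kinases and phosphatases were the largest list, with 22 of 70 A3S genes (31.4%), 29 events of which 15 were in at least 2 libraries, and 6 multiples of 3. A relative of the lipid kinase above, MLOC_56464.2 (phosphatidylinositol-4-phosphate 5-kinase 9), lost 56 of 172 nt in 5 libraries at a ratio of 1.14 to 1.60.

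Ribosomal proteins were 5 of 25 A3S genes (20%), with 8 events, 3 of them multiples of 3. Their exons were deep, with a median of 1986 reads per base over the events, against 41.3 over all described genes. The exon of MLOC_73576.1 (60S ribosomal protein L17) had a depth of 5930 in the only library that listed it, Bass at 24 h, and lost 46 of 103 nt. MLOC_7688.1 (60S acidic ribosomal protein P0, of the ribosomal stalk) lost 55 of 393 nt in Bass and Stirling at 24 h, at depths of 3049 and 3034. Initiation and elongation factors were 3 of 12 genes (25%), and 0 of their 7 events removed a multiple of 3. An elongation factor-like protein, MLOC_67651.1, lost 41 of 161 nt in Bass and Stirling at 48 h at depths of 3127 and 3647.

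Descriptions that named a splicing factor, an RNA-binding protein or a helicase were found for 6 of 21 genes (28.6%), with 7 events. MLOC_59466.2, an ATP-dependent RNA helicase that belongs to a class of enzymes unwinding RNA, lost 98 of 165 nt in 5 libraries at a ratio of 1.25 to 1.64. MLOC_52203.1 (DNA helicase) lost 74 of 157 nt in 5 libraries. MLOC_36997.2, a splicing factor 3B subunit from the complex that binds the branch point, lost 36 of 120 nt in Bass, Stirling and Baudin, only at 48 h. Ubiquitin and proteasome genes were 6 of 20 (30%), and 1 of their 6 events recurred, in MLOC_55361.1, a ubiquitin-like domain CTD phosphatase.

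Descriptions with the words transcription factor, zinc finger or PHD finger were found for 3 of 30 genes (10%), and all 3 events removed a multiple of 3. This word search missed the DEHYDRATION-INDUCED 19 homolog described above. Beside ALFIN-LIKE 9 these were MLOC_38681.2, a PHD finger protein with 84 of 213 nt removed, and MLOC_36345.3, a transcription factor with 132 of 258 nt removed at a depth of 893. Late embryogenesis abundant proteins, which protect cells of the dry seed, were the members of the list of seed proteins, with 2 of 3 genes and 3 events. All 3 removed multiples of 3, at depths of 1154 to 3872, and each was listed in 1 library at 48 h. MLOC_77777.3 lost 33 of 525 nt in Stirling and 66 nt of the same exon in Baudin, and MLOC_6950.3 lost 240 of 612 nt in Bass.

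Descriptions that named a hormone were found for 2 of 5 genes. The kinase gene MLOC_69212.1 above, which the study placed with the SnRK2 kinases of abscisic acid signalling, has no such word in its description and is not counted. MLOC_15761.1, a jasmonate-induced protein, lost 124 of 277 nt in Bass, Harrington and Baudin and 76 nt of the same exon in Stirling, all at 24 h, and MLOC_58330.2 (auxin response factor 18, a DNA-binding protein) lost 45 of 1142 nt in Bass at 24 h. Descriptions matched by words for glycolysis, starch and sugar enzymes were found for 4 of 17 genes (23.5%), with 5 events and 0 multiples of 3. Among them glyceraldehyde-3-phosphate dehydrogenase, a glycolytic enzyme, in MLOC_15296.1 lost 40 of 147 nt in 4 libraries at a ratio of 1.26 to 1.40. The word search also took in MLOC_53886.2, described only as a 2-phosphoglycerate kinase-related protein, with sites at 124 and 133 nt of an exon of 287 nt. The cell wall list had 1 of 5 genes, the expansin gene MLOC_70189.1, whose product loosens walls, with sites in 2 exons. Heat shock and chaperone genes had 0 of 3.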

How the data were processed

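The authors aligned unstranded RNA-seq reads to the Morex genome (IBSC) with SOAP2. They found junctions with SOAPsplice, which maps whole reads first and then splits those it could not map. Antisense transcripts cannot be told apart. The deposited lists give for every exon its bounds, its mean depth, not scaled for library size, and another value up to 1 that the column note calls a minimum depth. That value times exon length was whole (within 0.05) in 100% of 3534 partly covered annotated exons, so it was read as the covered share. The annotated depth is a mean over covered bases (99.3% whole within 0.1) and the alternative depth over the full length (100% of 1664). All sample columns were mapped (0 left out).

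The depth of the removed stretch was derived from both forms. Junction reads, on which a test would rest, were not analysed here, so log2 ratios of stretch to kept part, with 0.5 added to both, were used. In 20 entries (1.12%) the stretch came out below 0 and was set to 0. Libraries were compared with exact sign-flip permutation tests over varieties, and single events with a blocked limma fit (3.58.1, R 4.3.3, variety as block) that was tested on simulated data. Varieties pair the libraries, since each was sampled at both times (correlation of same-variety deviations Bass -0.24, Harrington -0.28, Stirling 0.38, Baudin 0.18). The p-values measure the spread between varieties, each with 1 library per time. The recurrence comparison is an exception, since its variety values depend on each other. Python 3.11.15, pandas 2.3.3 and scipy 1.17.1 were used. Alternatives were other length thresholds, a depth minimum, full cover, another added depth, 1 count per gene, centring, no block and each variety left out.

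Named events were those in all 8 libraries, the 5 longest, the 5 with the largest share removed, up to 3 on either side of the threshold, the 5 genes with most events, events in all varieties at only 1 time, and up to 3 per word list, searched in gene descriptions of the study's supplementary tables. Events, lists and tests were chosen with earlier results of these data known. Sequences were not used here, and 2 entries bear a mark that the column note does not explain.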

Additional observations from a re-analysis of the deposited data

Results flagged for a closer look

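In groups of 4 libraries, 6 of 76 groups examined (7.89%) had 1 library far from the other 3, where chance gives about 5%. Harrington at 48 h had the lowest median exon depth over its far shortening acceptors, 23.0 reads per base, against 30.2 to 31.6 in the other varieties at that time. Harrington was also apart in MLOC_38749.13, a 36 nt event, with an exon depth of 10.5 at 24 h against 39.8 to 43.9, and a ratio of stretch to kept depth of 1.24 at 48 h against 1.07 to 1.08. In MLOC_50869.1, a 43 nt event, Bass at 24 h had a ratio of 0.475 against 0.725 to 0.769 in the others. In MLOC_66800.1, a 131 nt event, Stirling stood apart at both times, with an exon depth of 46.8 at 24 h against 33.3 to 34.4 (a mean over covered bases, which over the full length of the exon is 37.4 in Stirling and the same in the others), and a ratio of 4.06 at 48 h against 2.28 to 2.55. Both genes with 2 such values are without a description.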

How the results depend on the processing

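Of the count and median comparisons, the number of far shortening acceptors per library turned from lower to higher at 48 h when only removals of at least 61 nt (difference 5) or over 100 nt (difference 5.75) were kept, and kept its sign without any 1 variety (-26.3 to -6.67). The share of A3S events stayed positive under every alternative (1.80 to 2.28 points without 1 variety), and without the pairing by variety (no replicate block) its difference of 2.01 had p = 0.0286 by exact permutation. The log2 depth ratio, near 0 in the main comparison, was 0.0381 with a threshold of 21 nt and -0.0529 to 0.0224 without 1 variety, the positive value being that without Bass. In the fit over 136 A3S events, 3 were called without the replicate block, and 0 to 1 without 1 variety (1 without Stirling), and 0 of the far shortening acceptors under any alternative. The block changed no other call. Single events, none of them called, changed sign when ratios were centred on the library median, to 0.0233 in MLOC_20668.1, 0.0527 in MLOC_12188.3, 0.0591 in MLOC_80476.1, 0.0736 in MLOC_18775.1, 0.12 in MLOC_38749.13 and 0.11 in MLOC_33273.1. Without 1 variety the range crossed 0 in MLOC_13672.3 (-0.12 to 0.51), MLOC_18775.1 (-0.17 to 0.0545), MLOC_38749.13 (-0.0441 to 0.0248) and MLOC_33273.1 (-0.32 to 0.20). The cause was not tested in any of these. The remaining values, 62 of comparisons and 120 of single events, kept their direction and side of the threshold. With 4 varieties or fewer the sign-flip tests cannot pass 0.05, so for them only the direction could change. Events at a depth of a few reads per base limit what the lists can show, since a site that is not listed has no value.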
